A study of Homo sapiens with 2 samples.

Results

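The genes described here are the cytokines, chemokines and their receptors measured by RNA-seq in cells labelled HAL-01, a human leukaemia cell line whose labels give its type as pre-B acute lymphoblastic leukaemia. There was 1 culture labelled AG, which was kept for 24 h with 1,5-AG at 0.8 mM (1,5-anhydroglucitol, a sugar close to glucose in structure), and 1 culture labelled Control, for which the sources used here give no treatment. Members were the protein-coding genes listed in either library whose symbols begin with CCL, CXCL, CCR, CXCR, IL, TNFSF or TNFRSF and a number, plus a fixed set of growth factor, TGF-beta and urokinase receptor genes, with ILF and ILK genes left out. The rule found 69 members among 16145 listed genes. IL4I1 was left out because it encodes an enzyme, not a ligand or a receptor. Of 186 genes in GENCODE 29 that the rule describes, 117 were listed in neither library, and no level is read from their absence. Of the 12 genes of the fixed set, only CSF1, TGFBR1 and PLAUR were listed. The other 9, among them CSF1R, CSF3R, FLT3 and KIT, were therefore not compared.

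Cytokines are secreted proteins through which blood cells instruct one another, and a cell responds only to those whose receptor it carries. Most interleukin receptors signal through JAK kinases and STAT transcription factors, chemokine receptors signal through G proteins and steer migration, and TNF family receptors signal through adaptor proteins to NF-kB or to cell death. Soluble antagonists and decoy receptors limit these signals. Monocytes and granulocytes carry a wide set of such receptors, whereas B cell precursors are known, most strictly in mice, for their need of the receptor of interleukin 7.

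Each library stands alone, so no difference below has a replicate check and no test between conditions was possible. Levels are given as the FPKM the authors deposited, in which each fragment count is divided by gene length and by the total of its library. The steps between low values implied 14857372 fragments for AG and 16240451 for Control, and the whole fragment numbers behind a gene gave each ratio an exact 95% Clopper-Pearson interval. They hold counting error alone, leave out how cultures vary, and were not adjusted for the number of genes. Because the totals differ, a gene with equal fragment numbers in both libraries has a ratio of 1.09. The marker lists did not follow the label. The granulocyte and monocyte list, with 7 of its 12 genes listed, summed to 497 FPKM in AG and 952 in Control, where CTSG alone had 194 FPKM in AG and 743 in Control. Without CTSG the list summed to 303 FPKM in AG and 209 in Control. Of the 7 genes, 4 were higher in AG (ITGAM, S100A9, LYZ and CD33) and 3 lower (CTSG, MPO and ELANE), and ITGAM had 8.30 FPKM in AG and 1.55 in Control. The B cell precursor list had 4 of its 13 genes listed in AG and 7 in Control. The T and NK cell list held NKG7, a granule protein of cytotoxic cells, at 10.3 FPKM in AG and 17.2 in Control, the stromal list summed to 0.458 FPKM in AG and 0.185 in Control, and the erythroid list had 1 gene, HBB, at 0.0472 FPKM in Control only. The part of these marker genes in the results below was not tested. In a bulk culture, fewer cells of a type and less RNA per cell cannot be told apart.

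Promoter sequences, credited to RefSeq on GRCh38.p14, are shown for the 2 most abundant receptors (IL6R and CCR2), for the cytokine with the highest ratio among those whose interval excludes 1 (IL1B) and for the most abundant TNF family ligand (TNFSF10). Of the 69 members, 52 had an entry in the table. Each runs 5′ to 3′ on the gene's strand, from 250 bases before the RefSeq start to 50 after it. The windows are chr1:154405093-154405392 (plus strand) for IL6R, chr3:46353861-46354160 (plus) for CCR2, chr2:112836730-112837029 (minus) for IL1B and chr3:172523381-172523680 (minus) for TNFSF10. Capitals mark matches on either strand to the short motifs searched, which do not overlap one another in these windows. The TATA box was searched as TATAAA. The site of AP-1, a factor of FOS and JUN proteins, was searched as TGANTCA. That of C/EBP, a family of myeloid factors, was searched as TTGCNNAA, and that of the myeloid factor PU.1 as AGAGGAAG.
IL6R: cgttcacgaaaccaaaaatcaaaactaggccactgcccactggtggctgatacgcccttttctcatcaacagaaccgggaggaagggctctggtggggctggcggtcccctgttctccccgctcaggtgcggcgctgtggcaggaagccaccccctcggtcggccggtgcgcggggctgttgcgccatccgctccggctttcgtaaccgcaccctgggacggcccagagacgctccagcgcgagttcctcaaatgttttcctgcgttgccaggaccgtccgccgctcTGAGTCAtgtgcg
CCR2: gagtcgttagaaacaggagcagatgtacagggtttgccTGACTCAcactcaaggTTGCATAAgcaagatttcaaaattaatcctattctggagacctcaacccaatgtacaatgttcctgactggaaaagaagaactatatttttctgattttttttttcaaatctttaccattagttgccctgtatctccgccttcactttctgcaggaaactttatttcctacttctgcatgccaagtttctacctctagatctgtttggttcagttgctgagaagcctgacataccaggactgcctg
IL1B: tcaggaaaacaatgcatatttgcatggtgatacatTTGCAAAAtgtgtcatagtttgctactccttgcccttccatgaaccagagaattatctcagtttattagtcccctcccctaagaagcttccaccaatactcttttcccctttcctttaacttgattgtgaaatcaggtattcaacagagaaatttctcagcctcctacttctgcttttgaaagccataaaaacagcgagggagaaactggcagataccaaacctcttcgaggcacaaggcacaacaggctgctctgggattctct
TNFSF10: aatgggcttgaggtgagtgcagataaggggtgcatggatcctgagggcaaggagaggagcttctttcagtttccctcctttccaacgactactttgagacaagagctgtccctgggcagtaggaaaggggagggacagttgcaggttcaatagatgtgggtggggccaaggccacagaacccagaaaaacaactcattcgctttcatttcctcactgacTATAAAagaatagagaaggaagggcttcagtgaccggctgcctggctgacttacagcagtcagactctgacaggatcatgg
The IL6R window held 1 AP-1 match, which lies after the RefSeq start and not before it. The CCR2 window held 1 AP-1 and 1 C/EBP match before the RefSeq start, but the whole window lies inside the GENCODE span of CCR2. The IL1B window held 1 C/EBP match and the TNFSF10 window held 1 TATA box. No window held the PU.1 letters. Among all 34789 RefSeq windows of this length, 11.6% held the TATA letters, 7.69% the AP-1 letters, 10.5% the C/EBP letters and 4.44% the PU.1 letters. The matches are descriptions of sequence and not evidence of binding.

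Of the 69 members, 47 were listed in both libraries and 17 of these had a mean of at least 1 FPKM. The members were uneven in level. In AG 40 of 57 listed members were under 1 FPKM, and in Control 42 of 59. Low levels were common among all listed genes too. The member IL7R, at 1.07 FPKM in AG and 1.47 in Control, stood above 57.0% of all genes listed in AG and 61.7% in Control. IL6R and CCR2 together made up 57.5% of the summed member FPKM in AG (146 of 253) and 59.3% in Control (154 of 260). The 5 members at 10 FPKM or more were the same 5 receptors in both libraries, namely IL6R, CCR2, TGFBR1, CXCR2 and TNFRSF1B.

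**Figure D1:**
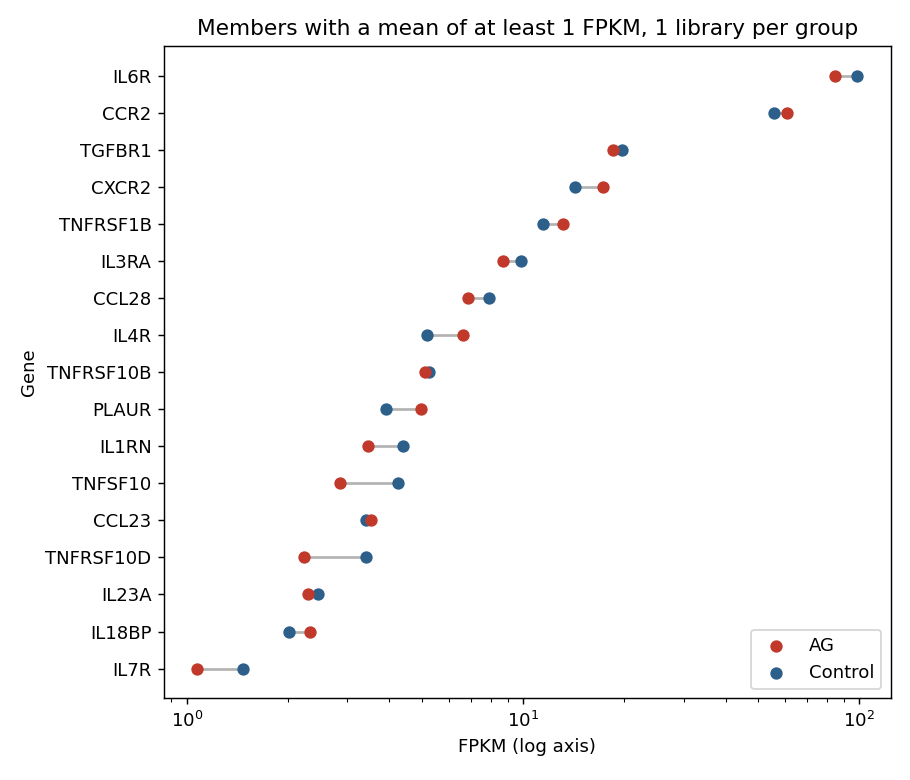
FPKM (log axis) in AG (red) and Control (blue) for the 17 members with a mean of at least 1 FPKM, ordered by mean. IL6R and CCR2 stand above the rest, and the paired points lie close together, with the widest gaps on this axis at TNFRSF10D and TNFSF10.

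None of the 17 members was past 1.5-fold on the log2((FPKM + 1) ratio) scale in either direction. Of all 5528 genes that reached this mean, 3.6% passed 1.5-fold upwards in AG and 3.33% downwards, so a count of 0 among 17 lies near the background. The same scale put 1.18% of all genes past 2-fold higher and 0.886% past 2-fold lower. Members ranged from a log2 ratio of -0.45 for TNFRSF10D to 0.30 for IL4R. Their median was -0.07, with 7 above 0 and 10 below, and the median of all 5528 genes was -0.03. The counting interval of the plain FPKM ratio lay above 1 for 5 members (29.4%, against 16.6% of all genes with an interval) and below 1 for 6 (35.3%, against 22.7%).

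**Figure D2:**
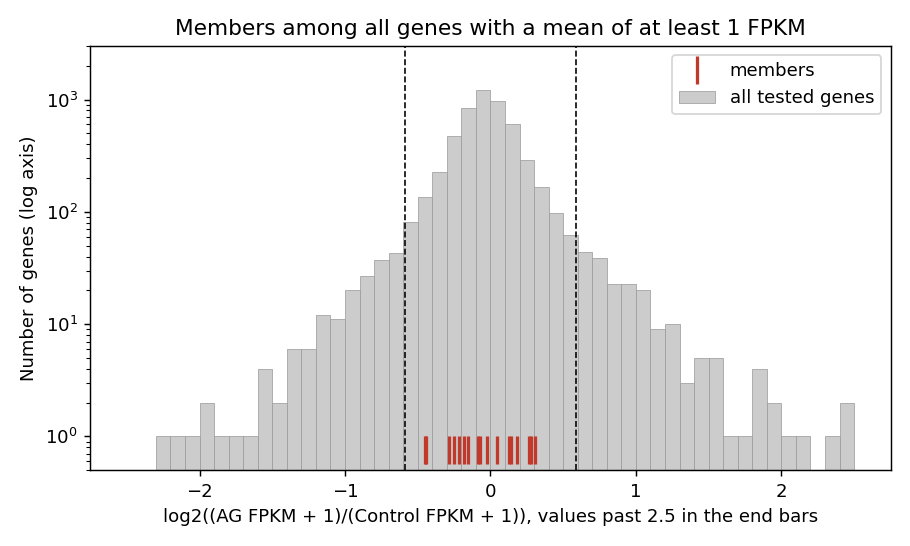
Number of genes (log axis) by log2((AG FPKM + 1)/(Control FPKM + 1)) for all 5528 tested genes (grey bars), with the 17 members as red ticks and 1.5-fold marked by dashed lines. Every member tick lies between the dashed lines, from -0.45 to 0.30.

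Among interleukin receptors, IL6R was the most abundant and was slightly lower in AG. IL6R (ENSG00000160712, chromosome 1, 154405193 to 154469450, plus strand) encodes the chain that binds interleukin 6 and then pairs with gp130. It had 84.6 FPKM in AG (8113 fragments) and 98.7 in Control (10341 fragments), a ratio of 0.858 (95% counting interval 0.833 to 0.883). This placed it at rank 176 of 13351 listed genes in AG and rank 136 of 13342 in Control. IL3RA, the alpha chain of the interleukin 3 receptor, had 8.74 FPKM in AG and 9.83 in Control, a ratio of 0.889 (0.741 to 1.07). IL4R, the alpha chain shared by the interleukin 4 and interleukin 13 receptors, had 6.62 FPKM in AG and 5.18 in Control, a ratio of 1.28 (1.13 to 1.44). It was the receptor with the highest log2 ratio of the 17. IL7R, the alpha chain of the interleukin 7 receptor, had 1.07 FPKM in AG (96 fragments) and 1.47 in Control (144 fragments), a ratio of 0.729 (0.557 to 0.950). The 4 tested interleukin receptors thus lay on both sides of 1, with IL4R higher in AG and IL6R and IL7R lower by their counting intervals.

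Both chemokine receptors above 1 FPKM were slightly higher in AG. CCR2 (ENSG00000121807, chromosome 3, 46353734 to 46360928, plus strand), through which monocytes follow CCL2, had 60.9 FPKM in AG and 55.7 in Control. Its fragments were nearly equal in number, 3507 in AG and 3504 in Control, and the ratio was 1.09 (1.04 to 1.15), so its distance from 1 rests on the library totals. CXCR2 (chromosome 2, 218125289 to 218137253, plus strand), through which neutrophils follow ELR chemokines such as CXCL1 and CXCL2, had 17.3 FPKM in AG and 14.2 in Control, a ratio of 1.22 (1.10 to 1.34). CXCR2 is uncertain because its pseudogene CXCR2P1, with which reads can be shared, had 3.33 FPKM in AG and 1.16 in Control. The ratio of IL6R to CCR2 levels was 1.39 in AG and 1.77 in Control.

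In the TRAIL system, the ligand and a decoy receptor were lower in AG, while the death receptor TNFRSF10B was nearly level. TRAIL, the product of TNFSF10, is a ligand that triggers apoptosis through death receptors such as TNFRSF10B. TNFRSF10D is a decoy receptor with a truncated death domain. The related TNFRSF10A was listed in neither library, and TNFRSF10C in Control only, at 0.0399 FPKM. TNFSF10 (ENSG00000121858, chromosome 3, 172505508 to 172523507, minus strand) had 2.86 FPKM in AG (146 fragments) and 4.24 in Control (237 fragments), a ratio of 0.673 (0.544 to 0.831). TNFRSF10D (ENSG00000173530, chromosome 8, 23135588 to 23164030, minus strand) had 2.23 FPKM in AG (117 fragments) and 3.41 in Control (196 fragments), a ratio of 0.653 (0.514 to 0.825). These were the lowest ratios of the 17 members, and with a pseudocount of 0.1 FPKM in place of 1 FPKM TNFRSF10D alone passed 1.5-fold, at a log2 ratio of -0.59. The death receptor TNFRSF10B had 5.12 FPKM in AG and 5.24 in Control, a ratio of 0.978 (0.849 to 1.13). The decoy therefore stood at 0.435 of the TNFRSF10B level in AG and 0.652 in Control, and the ligand at 0.558 in AG and 0.810 in Control. The TNFRSF10 genes are alike in sequence, and TNFRSF10B overlaps RHOBTB2, a gene on the opposite strand with 5.46 FPKM in AG and 4.84 in Control, so reads may not be fully separated. TNFRSF1B, a TNF receptor of leukocytes without a death domain, had 13.1 FPKM in AG and 11.4 in Control, a ratio of 1.15 (1.03 to 1.27).

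**Figure D3:**
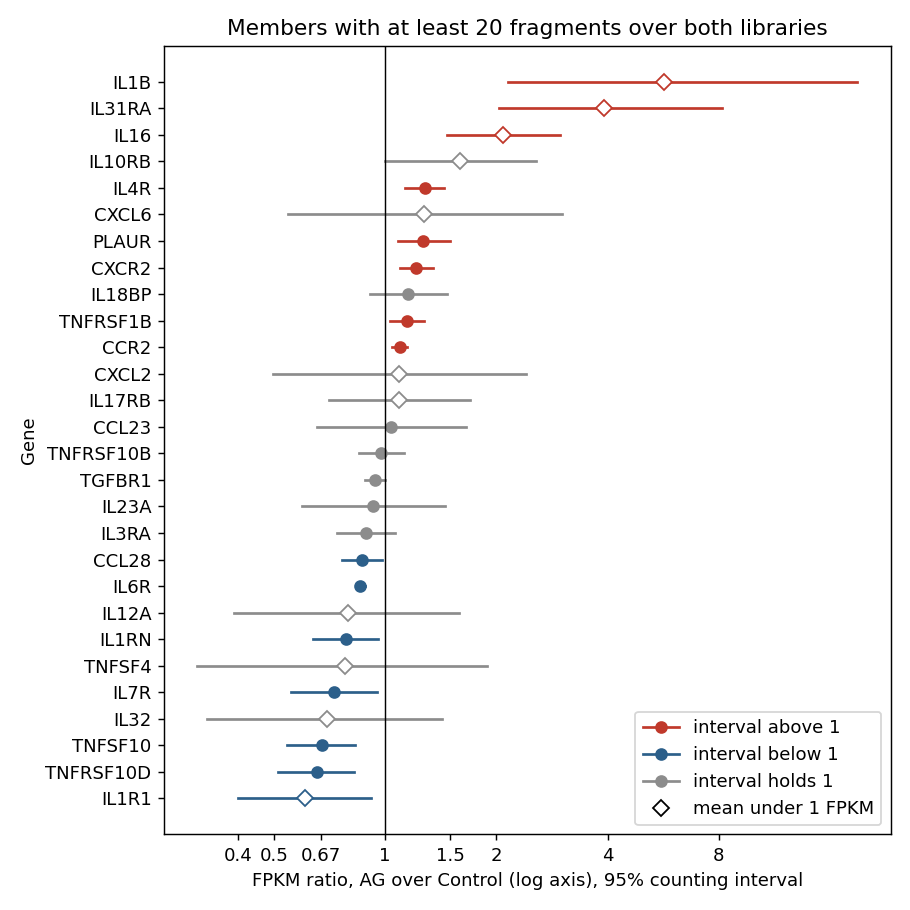
Ratio of AG to Control FPKM (log axis) with its 95% counting interval for the 28 members with at least 20 fragments over both libraries. Filled circles have a mean of at least 1 FPKM and open diamonds less, with red for intervals above 1, blue for intervals below 1 and grey for the others. IL1B, IL31RA and IL16 lie farthest right among the red ones, and TNFSF10, TNFRSF10D and IL1R1 farthest left among the blue ones.

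The remaining receptors above 1 FPKM were TGFBR1 and PLAUR. TGFBR1, the signalling kinase of the TGF-beta receptor, had 18.5 FPKM in AG and 19.7 in Control, a ratio of 0.940 (0.883 to 1.00). PLAUR, the urokinase receptor that focuses plasmin formation at the surface of migrating myeloid cells, had 4.98 FPKM in AG and 3.92 in Control, a ratio of 1.27 (1.08 to 1.49). The interval of PLAUR lay above 1, and that of TGFBR1 held 1.

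Among the listed members, no ligand reached 10 FPKM in either library. CCL28, a chemokine known from mucosal epithelium that binds CCR3 and CCR10, had 6.86 FPKM in AG and 7.91 in Control, a ratio of 0.867 (0.766 to 0.982). CCL23, a chemokine made by myeloid cells, had 3.54 FPKM in AG (39 fragments) and 3.40 in Control (41 fragments), a ratio of 1.04 (0.653 to 1.65). IL23A, the p19 subunit of interleukin 23, had 2.29 FPKM in AG and 2.46 in Control, a ratio of 0.930 (0.595 to 1.45). Its partner subunit IL12B rested on 1 fragment in each library. Of these 3 ligands the interval excluded 1 for CCL28 only.

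Of the 2 soluble antagonists above 1 FPKM, IL1RN was lower in AG by its counting interval and that of IL18BP held 1. IL1RN, the interleukin 1 receptor antagonist, had 3.45 FPKM in AG and 4.41 in Control, a ratio of 0.782 (0.637 to 0.959). IL1B, the agonist for the same receptor, had 0.582 FPKM in AG and 0.102 in Control. The antagonist was therefore 5.93 times the IL1B level in AG and 43.1 times in Control, where IL1B rested on 5 fragments. IL18BP, which neutralises interleukin 18, had 2.33 FPKM in AG and 2.01 in Control, a ratio of 1.16 (0.910 to 1.47). It lies opposite NUMA1, with 9.64 FPKM in AG and 10.1 in Control, whose reads may not be separated from it.

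A further 30 members listed in both libraries had a mean under 1 FPKM. Of these, the interval of the ratio lay above 1 for 3 (10%, against 3.72% of all genes at this level) and below 1 for 1 (3.33%, against 4.11%). The 3 were IL1B, IL31RA and IL16. IL1B (ENSG00000125538, chromosome 2, 112829751 to 112836903, minus strand), the inflammatory cytokine of monocytes, had 26 fragments in AG and 5 in Control, a ratio of 5.68 (2.15 to 19.0). IL31RA (ENSG00000164509, chromosome 5, 55851379 to 55922853, plus strand), which forms the interleukin 31 receptor with OSMR, had 0.760 FPKM in AG (43 fragments) and 0.194 in Control (12 fragments), a ratio of 3.92 (2.03 to 8.16). IL16, a precursor of a chemoattractant that binds CD4, had 0.551 FPKM in AG (99 fragments) and 0.265 in Control (52 fragments), a ratio of 2.08 (1.47 to 2.97). The single lower one was IL1R1, the signalling receptor of interleukin 1, with 0.369 FPKM in AG (39 fragments) and 0.605 in Control (70 fragments), a ratio of 0.609 (0.401 to 0.914). The pseudocount of 1 FPKM shrinks these differences, and on that scale IL31RA and IL1B had log2 ratios of 0.56 (IL31RA) and 0.52 (IL1B), under 1.5-fold.

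For the other 26 members under 1 FPKM the interval held 1. They ran from 0.0209 to 0.973 FPKM in AG and from 0.0144 to 0.890 in Control, and 19 of them had under 20 fragments in both libraries together. The highest by the mean FPKM of both libraries was IL17RB, the receptor of interleukin 25, with 44 fragments in each library. IL10RB, a chain of the interleukin 10 receptor, had 0.714 FPKM in AG and 0.449 in Control, a ratio of 1.59 (1.00 to 2.56). At such depths a ratio like that of IL10RB lay within counting error.

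Members listed in 1 library only were not compared. Of the 69 members 47 were listed in both libraries, and of all 16145 listed genes 10548 were. Listing in 1 library only was thus common among all genes and is not read as a trait of the members. The 10 listed only in AG ran from 0.0216 FPKM to 0.199 for TNFRSF17, a receptor of plasma cells, and the 12 listed only in Control from 0.00782 FPKM to 0.239 for CCL19, a chemokine of lymph nodes. The nearest whole fragment number at the GENCODE 29 exon length was at most 4 for the genes listed only in AG and at most 7 for those listed only in Control.

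Most signalling genes downstream of these receptors that could be compared differed by less than 1.5-fold. Of 81 genes listed for the JAK-STAT, interleukin 1, TNF, TGF-beta, chemokine and urokinase arms, 36 were listed, 32 of them in both libraries, and 26 of the 32 had a mean of at least 1 FPKM. The 4 listed in 1 library only were not compared, namely RGS2 and ACKR2 in AG and ACKR3 and RGS1 in Control. Of these RGS2, a regulator of G protein signalling, had 2.32 FPKM in AG, and the other three were under 1 FPKM. On the scale with the pseudocount, 1 of the 26 genes passed 1.5-fold upwards in AG and 0 downwards, against 3.6% and 3.33% of all genes. The median log2 ratio was -0.01. The higher one was SH2B3, an adaptor protein (LNK) that restrains JAK2 and cytokine receptor signalling, with 16.0 FPKM in AG and 7.06 in Control, a ratio of 2.26 (2.06 to 2.49). The most abundant gene of this arm was GRB2, an adaptor that links receptors to RAS, which had 102 FPKM in AG and 107 in Control. JAK2 itself had 10.9 FPKM in AG and 11.4 in Control. STAT5B, a transcription factor of interleukin 3 and 7 signalling, had 11.1 FPKM in AG and 10.4 in Control. Of the feedback inhibitors that STAT proteins induce, CISH had 3.50 FPKM in AG and 3.54 in Control and SOCS3 had 0.985 FPKM in AG and 0.878 in Control. GAB2, a docking protein of receptor signalling, had 2.45 FPKM in AG and 3.97 in Control, a ratio of 0.618 (0.526 to 0.724), which fell short of 1.5-fold on the scale with the pseudocount.

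In the interleukin 1 arm, IRAK1, a kinase of the receptor complex, had 113 FPKM in AG and 90.2 in Control, and IRAK3, an inhibitory relative found in monocytes, had 36.0 FPKM in AG and 35.9 in Control. In the TNF arm, FADD, the adaptor of death receptors, had 7.53 FPKM in AG and 6.06 in Control. MAP3K14, the kinase of the non-canonical NF-kB pathway, had 1.65 FPKM in AG (139 fragments) and 0.793 in Control (73 fragments). Its plain ratio was 2.08 (1.56 to 2.80), past 1.5-fold. On the scale with the pseudocount its log2 ratio was 0.56, just under 1.5-fold. In the TGF-beta arm, SKIL, a repressor of SMAD proteins, had 8.89 FPKM in AG and 5.97 in Control, a ratio of 1.49 (1.36 to 1.64), while SMAD3, which carries the signal to the nucleus, had 4.28 FPKM in AG and 5.75 in Control, a ratio of 0.744 (0.671 to 0.823). In the chemokine arm, GRK2, a kinase that desensitises chemokine receptors, had 104 FPKM in AG and 128 in Control, a ratio of 0.809 (0.788 to 0.830). GNAI2, the G protein subunit that couples them, had 43.7 FPKM in AG and 43.9 in Control. The urokinase arm had 0 genes above 1 FPKM, and its listed gene PLAT, a plasminogen activator, had 0.0173 FPKM in AG and 0.0238 in Control.

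**Figure D4:**
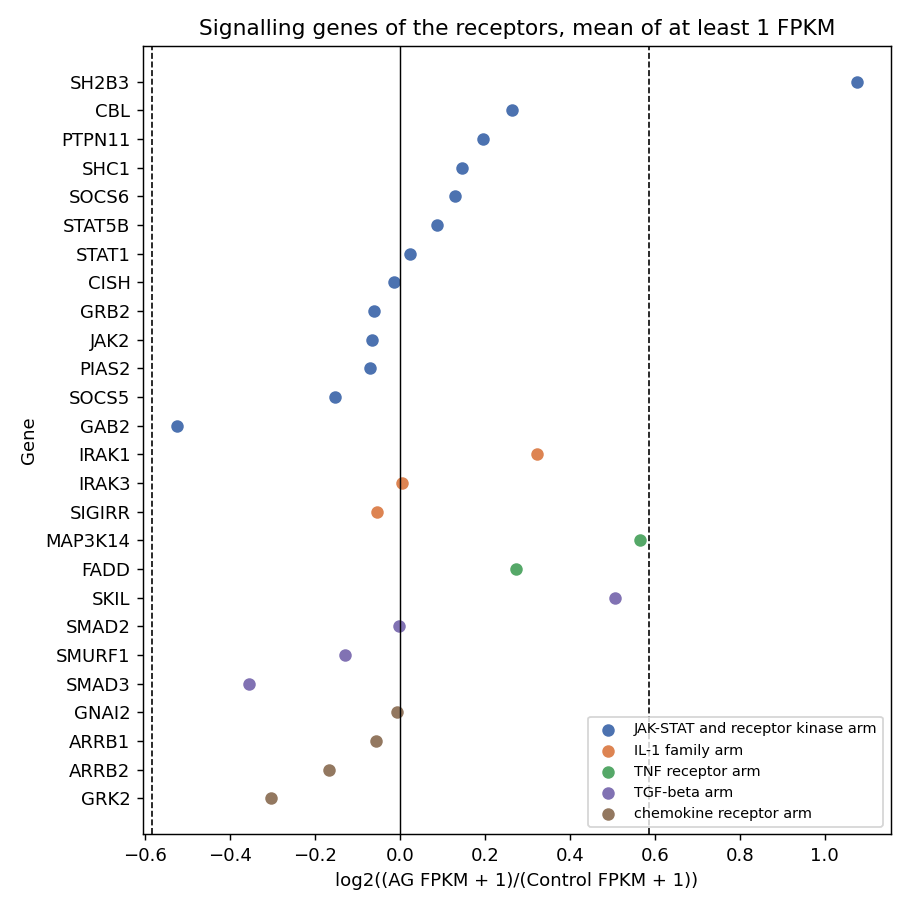
Log2((AG FPKM + 1)/(Control FPKM + 1)) for the 26 signalling genes that averaged 1 FPKM or more, coloured by arm, with 1.5-fold marked by dashed lines. SH2B3, at 1.07, is the gene past a dashed line, and MAP3K14, at 0.56, lies just inside it.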

How the data were processed

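RNA was extracted with Trizol and made into stranded TruSeq mRNA libraries, per the labels' protocols. The values are FPKM per gene, made and deposited by the authors. Per the submitters' processing notes, the build was hg38 and the tools were HTSeq, Cufflinks, HISAT2 and Trimmomatic. The sources used here give no annotation release, strand setting or filter, so reads of overlapping or near-identical genes may not be separated. FPKM divides by the library total, so abundant genes shift all others.

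Symbols and coordinates were taken from GENCODE 29 (GRCh38), which held 97.1% of the IDs. Library totals were recovered from 5259 single-transcript genes in AG and 5315 in Control, of which 88.1% and 88.4% gave whole fragments within 0.01. Fragment pairs were recovered for 98.7% of the tested genes. The pair is the one whose gene length lies nearest the GENCODE exon length. IL31RA, TNFRSF10D, CCL25 and IL12B gave no whole length in the annotated range, and the pair with the same ratio nearest that length was used. The change is log2((AG FPKM + 1)/(Control FPKM + 1)), and genes counted as tested had a value in each library and averaged at least 1 FPKM. The pseudocount understates the change of low genes, so plain ratios are given too. Called means at least 1.5-fold. With 1 library per group no count model was fitted.

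Any member could be named, and of the signalling genes those past 1.5-fold and the most abundant of each arm were named. JAK2, STAT5B, CISH, SOCS3, GAB2, IRAK3, MAP3K14, SMAD3, GNAI2, RGS2, ACKR2, ACKR3 and RGS1, and the marker genes named, were chosen after their values were seen. The members and lists were chosen with earlier results of these data known. The level of 1 marker list is not reported here. The steps were tested on simulated data. Alternatives were pseudocounts of 0.1 and 5 FPKM, no filter and a filter of 5 FPKM, 2 scalings and a 2-fold threshold. The software was matplotlib 3.10.9, pandas 2.3.3, scipy 1.17.1 and numpy 2.4.6 under Python 3.11.15.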

Additional observations from a re-analysis of the deposited data

Results flagged for a closer look

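The pseudogene CXCR2P1, which is not a member, had a signal higher in AG than in Control, with 3.33 FPKM in AG from 124 fragments and 1.16 FPKM in Control from 47, a ratio of 2.88 (95% counting interval 2.05 to 4.13). Its part in the CXCR2 value was not tested. Outside the comparison, 3 members listed in 1 library only had more than 3 fragments there. Their counts in the library that does not list them are not known, so no difference is read from this. IL1A had 4 fragments in AG, and CXCL16 and CXCL1 had 7 and 4 fragments in Control.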

How the results depend on the processing

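The count of members past the threshold and higher in AG was 0 under each of the 7 alternatives. A pseudocount of 5 FPKM, a filter of 5 FPKM and a 2-fold threshold could not raise a count of 0. The run without a filter kept the pseudocount of 1 FPKM, which shrinks the changes of low members. The count of members lower was 0 under 6 of the 7 alternatives and 1 with a pseudocount of 0.1 FPKM. There TNFRSF10D had a log2 ratio of -0.59. With that pseudocount the signalling genes gave 2 higher, MAP3K14 joining SH2B3, and 1 lower, GAB2. Scaling by the median of ratios also gave 2 higher signalling genes. The members' median ran from -0.09 with a pseudocount of 0.1 FPKM to 0.01 without a filter on low values, where 47 members entered, and that of the signalling genes ran from -0.01 to 0.03. TNFRSF10B was the single tested member whose sign changed, under scaling by the median of ratios, to a log2 ratio of 0.0026. No paired analysis was possible because each group has 1 library. Depth limits the members under 1 FPKM, 19 of which had under 20 fragments with an interval that held 1. With a single culture per condition, the treatment and any other difference between the cultures cannot be told apart.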

Other observations

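Cytokine receptors and ligands whose symbols lie outside the rule were looked at from a list of 18 genes written after values were seen, of which 10 were listed. IFNGR1, the ligand-binding chain of the interferon gamma receptor, had 32.5 FPKM in AG (1581 fragments) and 17.3 in Control (920 fragments), a ratio of 1.88 (95% counting interval 1.73 to 2.04). It was the single gene past 1.5-fold among the 3 averaging 1 FPKM or more, and was chosen after its value was seen. Of all 5528 genes at that level, 3.6% passed 1.5-fold upwards in AG. As the list was written after values were seen, its share past 1.5-fold is not compared with that figure. IFNAR1, a chain of the type I interferon receptor, had 12.1 FPKM in AG and 12.2 in Control, and TGFBR3, a co-receptor of TGF-beta, had 1.52 FPKM in AG and 1.40 in Control. OSMR, the partner chain of IL31RA, had 0.131 FPKM in AG (14 fragments) and 0.0601 in Control (7 fragments). FLT3LG, the ligand of a progenitor receptor, had 9 fragments in AG and 2 in Control, a ratio of 4.92 (1.02 to 46.8).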
